A study of Mus musculus with 12 samples.

Results

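The genes described here are 8 components of adrenergic and renin-angiotensin signalling in the left ventricle: the adrenergic receptors Adrb1, Adra1a and Adra1b, the adenylyl cyclases Adcy5 and Adcy6, and the angiotensin genes Agt, Ace and Agtr1a. They were taken by gene symbol from a count table of 49492 rows, and all 8 were among the 15542 genes with enough counts to test. RNA was sequenced from mouse left ventricle in 12 libraries, 3 in each of 4 groups. The groups were Alox5 knockout with TAC (Alox5ko_TAC), Alox5 knockout with the treatment labelled NS (Alox5ko_NS), wild type with TAC (WT_TAC) and wild type with NS (WT_NS). TAC stands for transverse aortic constriction, in which surgical narrowing of the aorta loads the left ventricle with pressure, and the labels do not spell out NS. The design text calls the knockout cardiac, and the labels used here give no promoter, Cre line, strain, sex, age or time after the operation. They also do not state whether the libraries are from separate animals, and a p-value here judges a difference only against the spread between libraries.

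Adrenaline and noradrenaline reach the heart muscle through beta receptors, which couple through the stimulatory G protein to adenylyl cyclase and raise cyclic AMP, and through alpha-1 receptors, which couple through Gq to phospholipase C. Angiotensinogen is cleaved by renin and then by angiotensin-converting enzyme to angiotensin II, whose type 1 receptor also couples to Gq. In the overloaded heart both systems are known to be active, and drugs that block beta receptors, the converting enzyme or the angiotensin receptor are standard treatments of heart failure.

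Under TAC, Ace was higher and Adra1b was lower, both in the knockout and in the average over the genotypes, and the other 6 genes did not pass the test (an adjusted p under 0.05 over all 15542 tested genes). In Alox5 knockout ventricles Ace averaged 56.5 ± 3.41 CPM with TAC and 35.2 ± 3.63 CPM with NS, while Adra1b averaged 5.42 ± 0.487 CPM with TAC and 8.96 ± 1.61 CPM with NS (SD, n = 3 libraries each). CPM, the level of a gene within a library, are counts divided by the TMM-scaled total of that library. Averaged over both genotypes, the log2 fold change of TAC over NS was 0.46 for Ace and -0.58 for Adra1b. Of the 8 genes, 1 was thus called higher and 1 lower in Alox5ko_TAC against Alox5ko_NS, where 1.34% of all tested genes were called (0.733% higher and 0.611% lower). The averaged fit also called 1 higher and 1 lower, where 5.10% of all genes were called (2.90% higher and 2.19% lower). In WT_TAC against WT_NS none was called, where 0.766% of all genes were. Between knockout and wild type none was called with TAC, where 0.109% of all genes were, or with NS, where 0.0386% were.

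Windows upstream of start sites of Ace and Adra1b are shown because these are the 2 genes that changed. Sequences are from RefSeq (GRCm38.p6), 250 bases before each annotated start, 5 prime to 3 prime in the direction of the gene, and 5 of the 8 genes matched the table, with 7 windows. Capitals mark GGGCGG (the GC box), TATAA (the core of the TATA box) or CCAAT, searched on both strands, with overlapping matches run together. The Ace window, at the start of the annotated gene, is chr11:105967698-105967947 on the plus strand. Those of Adra1b, on the minus strand, are chr11:43901238-43901487 for the outer start and chr11:43836490-43836739 for the inner one.
Ace: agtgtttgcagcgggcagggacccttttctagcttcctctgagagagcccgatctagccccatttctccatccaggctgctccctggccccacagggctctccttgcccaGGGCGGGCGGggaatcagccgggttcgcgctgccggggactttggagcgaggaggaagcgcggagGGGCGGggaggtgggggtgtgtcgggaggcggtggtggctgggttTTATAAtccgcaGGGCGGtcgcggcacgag
Adra1b outer start: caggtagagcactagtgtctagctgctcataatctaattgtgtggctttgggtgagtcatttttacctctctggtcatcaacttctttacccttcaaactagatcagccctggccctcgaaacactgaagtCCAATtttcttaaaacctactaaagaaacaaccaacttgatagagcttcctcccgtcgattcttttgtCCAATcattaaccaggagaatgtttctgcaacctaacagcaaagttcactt
Adra1b inner start: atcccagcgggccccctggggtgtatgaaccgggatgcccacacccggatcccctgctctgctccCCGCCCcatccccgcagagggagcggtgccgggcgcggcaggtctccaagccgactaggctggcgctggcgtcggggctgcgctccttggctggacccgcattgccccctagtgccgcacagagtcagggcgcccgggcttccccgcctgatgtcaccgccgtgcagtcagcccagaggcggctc
The Ace window held 4 matches of GGGCGG, at 140, 136, 75 and 18 bases before the start, and a TATAA match on each strand at 29 and 30 bases. A second Ace window in the table, not shown, held a CCAAT match on the opposite strand 25 bases before its start and no GC box. The outer Adra1b window held CCAAT at 119 and 51 bases before the start and no GC box, and the inner window held 1 GGGCGG match, on the opposite strand. Among 32851 windows of the same length, GGGCGG was present in 32.74%, TATAA in 22.78% and CCAAT in 33.85%. The letters TGTGGT, the core recognised by Runx factors, were in none of the 7 windows of these genes and in 14.05% of all windows, and TGACG, the short cyclic AMP response element, was in 1 of the 7 (Adrb1) and in 17.77% of all.

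Library totals were 21185989 to 23820523 counts in Alox5ko_TAC, 23792567 to 27311196 in Alox5ko_NS, 20889431 to 23196760 in WT_TAC and 21328937 to 22372490 in WT_NS. Alox5, the targeted gene, was at 1.10 to 1.36 CPM in Alox5ko_TAC, 0.934 to 1.46 CPM in Alox5ko_NS, 9.56 to 13.4 CPM in WT_TAC and 10.5 to 13.9 CPM in WT_NS, so every library matched its genotype label. All 7 cardiomyocyte markers were detected in every library and summed to 140015 to 176391 CPM, against 6.81 to 96.0 CPM for the 4 atrial markers. In each group 1 library had an atrial sum well above the other 2, namely Alox5ko_TAC 3 at 96.0 CPM, Alox5ko_NS 3 at 38.0 CPM, WT_TAC 1 at 66.6 CPM and WT_NS 1 at 83.4 CPM. Libraries also stood apart in other marker sums, among them WT_TAC 1, with 420 CPM of 6 activated fibroblast markers, Alox5ko_TAC 2, with 109 CPM of the same markers, Alox5ko_TAC 3, with the highest adipocyte sum (2.60 CPM), and Alox5ko_NS 3, with the lowest cardiomyocyte and endothelial sums.

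Levels of the 8 genes were compared per length with the deposited RPKM, the authors' counts divided by gene length and total counts. Adcy6 was highest, at 19.4 RPKM on average over the 12 libraries (16.4 to 22.5). Ace followed at 8.88 RPKM (5.96 to 12), Adcy5 at 5.91 (5.09 to 6.65), Agt at 3.75 (1.64 to 6.26) and Agtr1a at 3.54 (2.81 to 4.88 RPKM). Adra1b was at 2.19 RPKM (1.45 to 3.09), Adrb1 at 2.09 (1.57 to 2.52) and Adra1a at 0.651 (0.341 to 0.846 RPKM). Neighbours in this order overlapped in range, apart from Adcy6 above Ace and Adrb1 above Adra1a. Adcy5 and Adcy6 varied least, the highest library reaching 1.22 and 1.28 times the CPM of the lowest, and Agt varied most, at 3.88 times. The biological coefficient of variation, the spread between libraries of a group beyond counting error, was 0.0790 for Adcy5 and 0.416 for Agt, against a median of 0.109 over all tested genes.

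**Figure D1:**
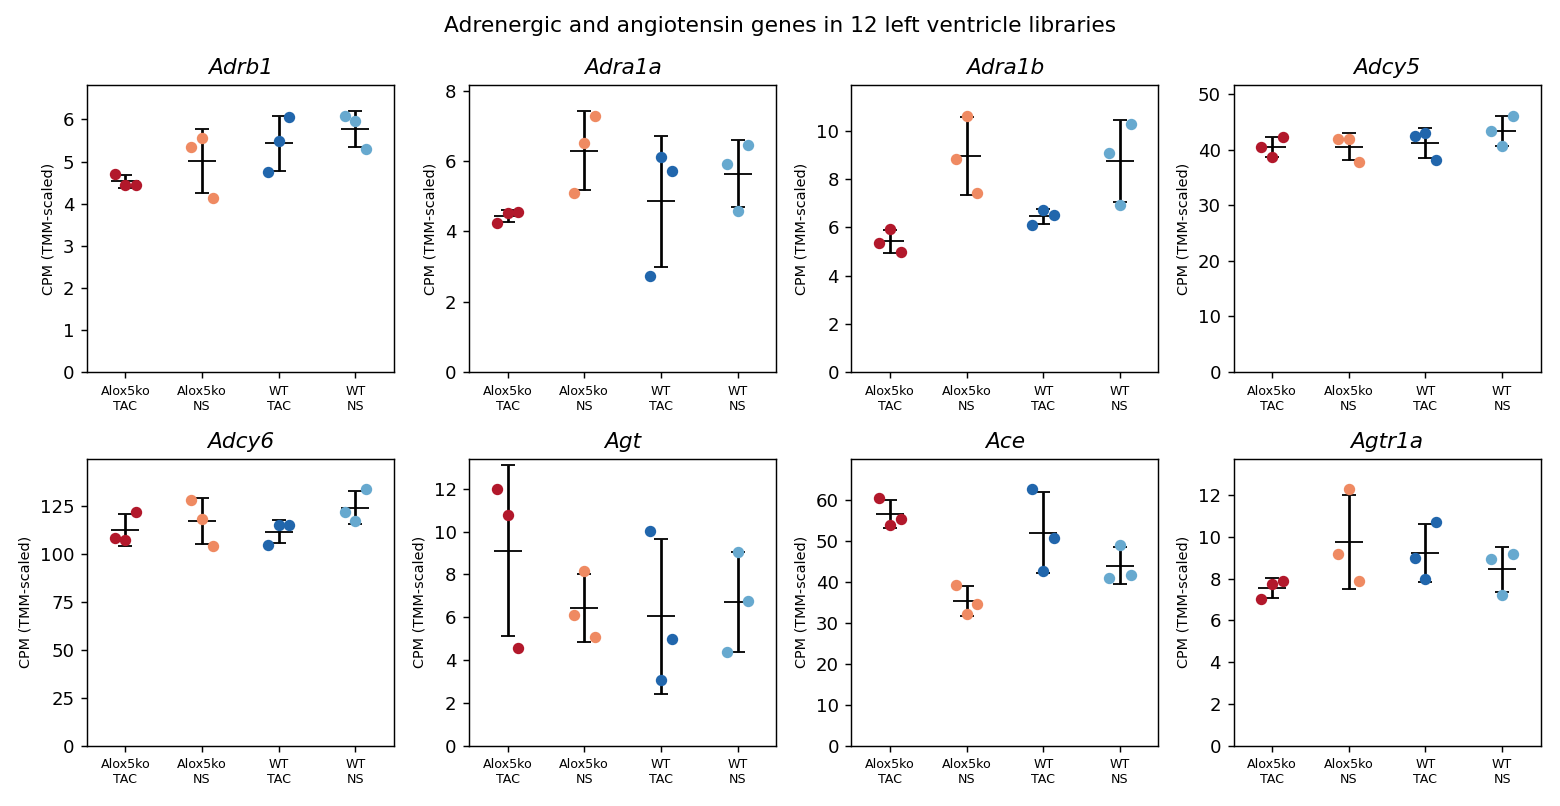
Level of each gene in every library (points), with the mean and SD of each group (bars), in TMM-scaled CPM on axes that start at 0. Ace in Alox5ko_TAC lies above all Alox5ko_NS libraries, Adra1b lies lower with TAC than with NS in both genotypes without overlap, and Agt spreads widely within groups.

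Adrb1 encodes the beta-1 receptor, the main beta receptor of the heart muscle cell (chromosome 19, 56722372 to 56724862, plus strand; positions are those of the mm10 build). It was at 4.71, 4.43 and 4.45 CPM in Alox5ko_TAC and 5.35, 5.56 and 4.14 CPM in Alox5ko_NS. Wild type libraries held 4.74, 5.49 and 6.06 CPM with TAC and 6.09, 5.96 and 5.30 CPM with NS. Groups overlapped in both comparisons of TAC with NS, and the log2 fold change was -0.15 in the knockout (adjusted p = 0.702, edgeR quasi-likelihood test with Benjamini-Hochberg adjustment over all tested genes, as for every adjusted p here) and -0.09 in wild type (adjusted p = 0.881). All 3 Alox5ko_TAC libraries lay below the lowest WT_TAC library, and the log2 fold change was -0.26 (adjusted p = 0.678). With 3 libraries a group, such separation gives an exact permutation p of 0.1. How many of all tested genes separate in this way was not counted, here or for the genes below. Averaged over both treatments, the knockout value was -0.23 (SE 0.104, adjusted p = 0.480).

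Adra1a and Adra1b encode alpha-1 receptors, which signal through Gq (Adra1a on chromosome 14, 66635251 to 66733462, plus strand; Adra1b on chromosome 11, 43774606 to 43901210, minus strand). Adra1b was at 5.35, 5.94 and 4.98 CPM in Alox5ko_TAC, against 8.82, 10.6 and 7.43 CPM in Alox5ko_NS. In wild type it was at 6.11, 6.73 and 6.53 CPM with TAC, against 9.09, 6.91 and 10.3 CPM with NS. Within each genotype every TAC library was below every NS library. The log2 fold change of TAC over NS was -0.73 in the knockout (SE 0.155, 95% interval -1.05 to -0.40, adjusted p = 0.0277) and -0.44 in wild type (SE 0.154, 95% interval -0.76 to -0.12, adjusted p = 0.224). The difference between these responses was -0.29 (SE 0.219, 95% interval -0.75 to 0.17, adjusted p = 1), so they were not shown to differ. Averaged over the genotypes, Adra1b fell by 0.58 on the log2 scale (SE 0.110, adjusted p = 0.00405). The knockout call was lost when Alox5ko_NS 1 (adjusted p = 0.0784), Alox5ko_NS 2 (0.119), Alox5ko_TAC 1 (0.0998) or Alox5ko_TAC 3 (0.113) was left out, and the averaged call was kept without any 1 of the 12 libraries, at adjusted p up to 0.0172.

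The summed level of the 7 cardiomyocyte markers, none at 0, was 167378 to 176391 CPM in Alox5ko_TAC and 140015 to 169303 CPM in Alox5ko_NS. In wild type it was 166874 to 171547 CPM in WT_TAC and 162292 to 174718 CPM in WT_NS. Group means of the sum gave TAC over NS ratios of 1.09 in the knockout and 1.01 in wild type, against 0.621 and 0.724 for Adra1b scaled in the same way. None of the 7 markers was called in any of these comparisons. In the knockout 3 of their log2 fold changes were positive and 4 negative (median -0.006). In wild type 4 were positive and 3 negative (median 0.009). Most of the sum came from Myh6 and Tnnt2, with means of 115018 and 40626 TMM-scaled CPM in Alox5ko_TAC. In bulk tissue, fewer cells of a type and less RNA per cell cannot be told apart.

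Adra1a was at 4.24, 4.52 and 4.54 CPM in Alox5ko_TAC, and 5.08, 6.53 and 7.30 CPM in Alox5ko_NS. In wild type it was at 2.72, 6.13 and 5.73 CPM with TAC, and 5.91, 4.58 and 6.46 CPM with NS. The knockout groups did not overlap, but the log2 fold change of -0.50 (SE 0.230) did not pass the test, at adjusted p = 0.325. In wild type the value was -0.21 (adjusted p = 0.799), and it was 0.07 without WT_TAC 1, the library with the lowest Adra1a level of all 12. Averaged over the genotypes Adra1a gave -0.36 (SE 0.163, adjusted p = 0.245).

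Adcy5 and Adcy6 encode the main adenylyl cyclases of the heart muscle cell, which make cyclic AMP when beta receptors are stimulated (Adcy5 on chromosome 16, 35154877 to 35305737, plus strand; Adcy6 on chromosome 15, 98589994 to 98607633, minus strand). Adcy5 was at 40.5, 38.7 and 42.2 CPM in Alox5ko_TAC, 41.9, 41.9 and 37.8 CPM in Alox5ko_NS, 42.5, 43.0 and 38.1 CPM in WT_TAC, and 43.4, 40.6 and 46.1 CPM in WT_NS. Adcy6 was at 108, 107 and 122 CPM in Alox5ko_TAC, 128, 119 and 104 CPM in Alox5ko_NS, 105, 115 and 115 CPM in WT_TAC, and 122, 117 and 134 CPM in WT_NS. Of the TAC and genotype comparisons of both genes, only Adcy6 in WT_TAC against WT_NS had groups that did not overlap. Its log2 fold change there was -0.15 (adjusted p = 0.525), and that of Adcy5 was -0.07 (adjusted p = 0.806). In the knockout, TAC over NS was -0.06 for Adcy6 (adjusted p = 0.820) and -0.004 for Adcy5 (adjusted p = 0.99), with a 95% interval of -0.18 to 0.17 for Adcy5. Adcy6 shares 601 exon bases with the antisense model Gm29331, at 99 to 150 counts against 2233 to 3435 for Adcy6, and whether counting used strand is not given in the sources used here.

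Agt encodes angiotensinogen, the precursor of the angiotensin peptides (chromosome 8, 124556534 to 124569706, minus strand). It was at 12, 10.8 and 4.54 CPM in Alox5ko_TAC and 6.09, 8.17 and 5.07 CPM in Alox5ko_NS. Wild type held 10.1, 3.09 and 4.98 CPM with TAC, and 4.36, 9.03 and 6.78 CPM with NS. Groups overlapped in all 4 comparisons. TAC over NS gave 0.50 in the knockout (95% interval -0.62 to 1.62, adjusted p = 0.714) and -0.17 in wild type (SE 0.511, adjusted p = 0.947) on the log2 scale. Alox5ko_TAC over WT_TAC gave 0.60 (95% interval -0.54 to 1.75, adjusted p = 0.816), so at this spread a change of either sign was within the interval.

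Ace encodes angiotensin-converting enzyme, which makes angiotensin II, degrades bradykinin, and is carried mainly by endothelium (chromosome 11, 105967945 to 105989964, plus strand). It was at 60.3, 53.9 and 55.2 CPM in Alox5ko_TAC, against 39.2, 32.1 and 34.4 CPM in Alox5ko_NS. In wild type it was at 62.5, 42.7 and 50.7 CPM with TAC, against 40.9, 49.0 and 41.7 CPM with NS. The knockout groups did not overlap, and the wild type groups did, since WT_TAC 2 lay below WT_NS 2. The log2 fold change of TAC over NS was 0.68 in the knockout (SE 0.119, 95% interval 0.43 to 0.93, adjusted p = 0.00907) and 0.24 in wild type (SE 0.118, 95% interval -0.01 to 0.49, adjusted p = 0.436). Averaged over the genotypes Ace rose by 0.46 (SE 0.0837, adjusted p = 0.00369), and this call was kept without any 1 of the 12 libraries, at adjusted p up to 0.0163. The knockout call moved just past the threshold without Alox5ko_NS 2 (adjusted p = 0.0525), Alox5ko_NS 3 (0.0501) or Alox5ko_TAC 1 (0.0550).

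The knockout and wild type responses of Ace differed by 0.44 on the log2 scale (SE 0.167, 95% interval 0.09 to 0.79), which did not pass adjustment over all genes (adjusted p = 0.839). With NS, Ace was lower in every knockout library than in any wild type library, with a log2 fold change of -0.32 (SE 0.119, 95% interval -0.57 to -0.07) that also missed the threshold after adjustment (adjusted p = 0.686). With TAC the value was 0.12 (95% interval -0.13 to 0.37, adjusted p = 0.841). Ace shares 295 exon bases with the antisense model Gm11651, which had 53 to 89 counts against 774 to 1421 for Ace.

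The summed level of 6 endothelial markers, none at 0, was 441.4 to 502.5 CPM in Alox5ko_TAC and 337.9 to 441.1 CPM in Alox5ko_NS, without overlap. In wild type it was 497 to 589 CPM in WT_TAC and 474 to 518 CPM in WT_NS. Ratios of group means were 1.20 for the sum and 1.64 for Ace between TAC and NS in the knockout, and 1.06 and 1.16 in wild type. Between Alox5ko_NS and WT_NS they were 0.804 for the sum and 0.760 for Ace. Between Alox5ko_TAC and WT_TAC they lay on opposite sides of 1, at 0.908 for the sum and 1.07 for Ace. All 6 endothelial markers had positive log2 fold changes for TAC over NS in the knockout, with a median of 0.23 and none called. The 6 activated fibroblast markers also summed higher with TAC, at 109 to 251 CPM in Alox5ko_TAC and 62.8 to 70.2 CPM in Alox5ko_NS, while wild type had 172 to 420 CPM in WT_TAC and 81.0 to 111 CPM in WT_NS. Of these 6, Cthrc1 was at 0 in 3 NS libraries and the others were above 0 in all 12. Ratios of group means of this sum, TAC over NS, were 2.90 in the knockout and 2.57 in wild type. Of the 5 markers tested, 3 were called higher in the averaged fit, where 2.90% of all tested genes were, and none within a genotype. The part of either set of cells in the Ace values was not tested.

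**Figure D2:**
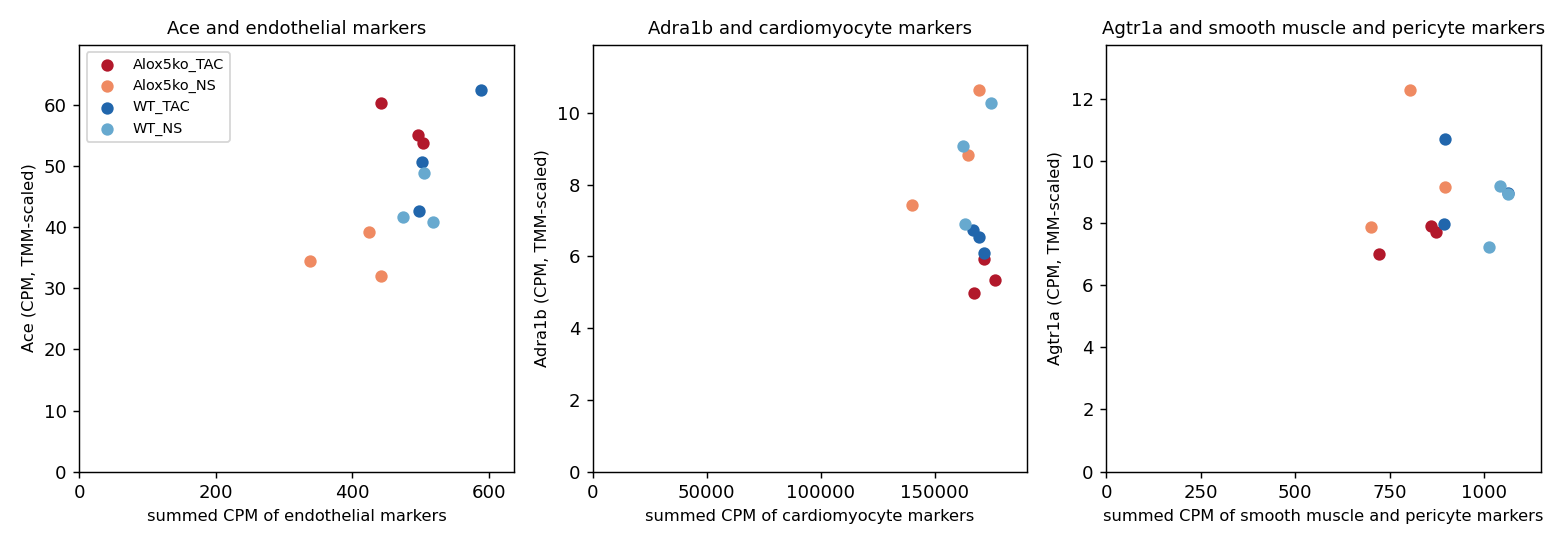
Ace, Adra1b and Agtr1a (TMM-scaled CPM, vertical axes) in each library against the summed CPM of endothelial, cardiomyocyte, and smooth muscle and pericyte markers (scaled by library total, horizontal axes). The Alox5ko_TAC libraries lie above the Alox5ko_NS libraries in Ace. They also lie above them, narrowly, in the endothelial sum (lowest 441.4 CPM with TAC, highest 441.1 CPM with NS). Adra1b separates by treatment, and the cardiomyocyte sums of TAC and NS overlap within each genotype. The part of these cells in the values was not tested.

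Agtr1a encodes the type 1a angiotensin II receptor, the main angiotensin receptor of the rodent heart and vessels (chromosome 13, 30336441 to 30382867, plus strand). It was at 7.0, 7.72 and 7.89 CPM in Alox5ko_TAC and 9.16, 12.3 and 7.87 CPM in Alox5ko_NS. Wild type libraries held 8.97, 7.98 and 10.7 CPM with TAC and 8.95, 7.22 and 9.20 CPM with NS. All 3 Alox5ko_TAC libraries were narrowly below the lowest WT_TAC library (at most 7.89 against 7.98 CPM), and the other comparisons of groups overlapped. For Alox5ko_TAC over WT_TAC the log2 fold change was -0.29 (95% interval -0.62 to 0.04), which did not pass the test (adjusted p = 0.646). The log2 fold change of TAC over NS was -0.38 in the knockout (SE 0.155, 95% interval -0.70 to -0.05, adjusted p = 0.257) and 0.12 in wild type (adjusted p = 0.831). The difference between these responses was -0.50 (SE 0.220, 95% interval -0.96 to -0.04), with an adjusted p of 0.885. Smooth muscle and pericyte markers, which mark cells that carry this receptor, summed to 722 to 871 CPM in Alox5ko_TAC, 701 to 896 CPM in Alox5ko_NS, 893 to 1064 CPM in WT_TAC and 1013 to 1062 CPM in WT_NS, with none of the 8 at 0, and their part in the values of Agtr1a was not tested.

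**Figure D3:**
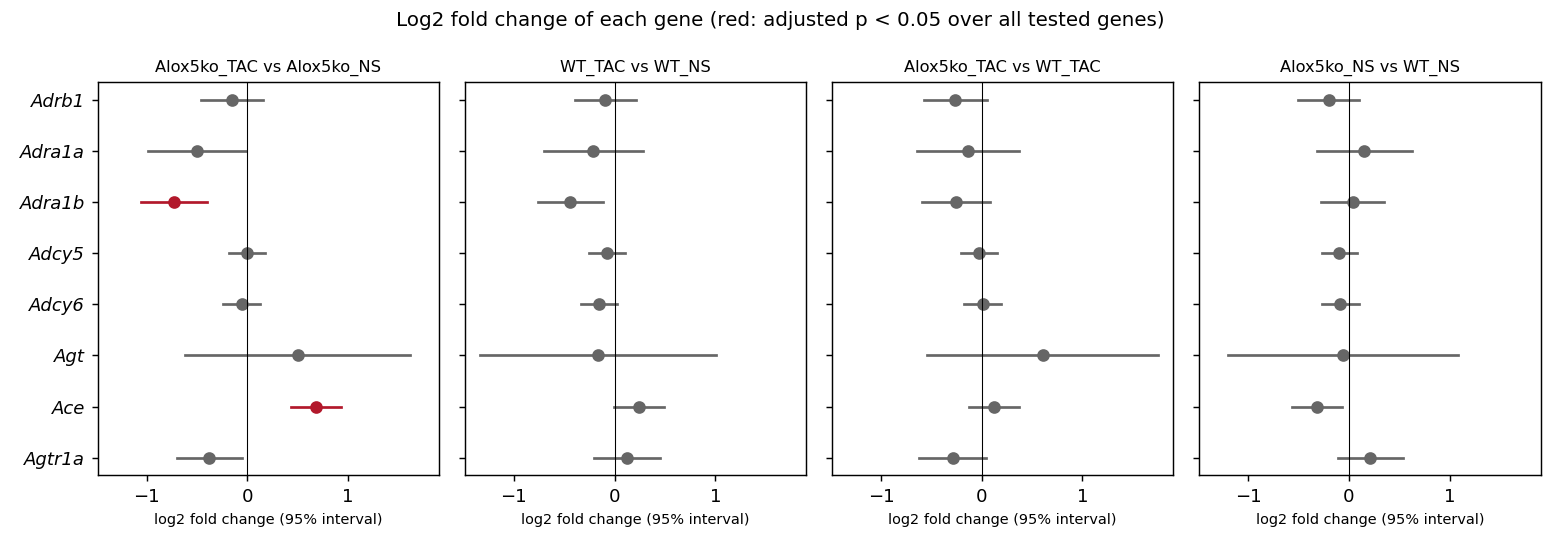
Log2 fold change of the 8 genes in the 4 comparisons of pairs of groups, with 95% intervals (horizontal bars). Points in red passed an adjusted p of 0.05, and these are Ace (0.68) and Adra1b (-0.73) in Alox5ko_TAC vs Alox5ko_NS.

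The comparisons that called none of the 8 genes with edgeR also called none with DESeq2. Before adjustment, 1 of the 8 had a p under 0.05 in WT_TAC against WT_NS (Adra1b), beside 11.9% of all tested genes. In Alox5ko_NS against WT_NS it was 1 of 8 (Ace), beside 6.36% of all genes, and in Alox5ko_TAC against WT_TAC 0 of 8, beside 8.49%. For the difference between the TAC responses it was 2 of 8 (Ace and Agtr1a), beside 5.38% of all genes, and 0% of all genes were called after adjustment. For genotype averaged over treatments it was 1 of 8 (Adrb1), beside 9.77% of all genes, and 0.154% were called after adjustment. The median log2 fold change of the 8 genes was -0.10 in Alox5ko_TAC against Alox5ko_NS and -0.12 in WT_TAC against WT_NS, beside -0.0027 and 0.0046 over all tested genes.

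Around these genes, 132 other gene symbols of the same pathways were listed in 10 groups. Ren2 had no row, nor had Adrbk1 and Adrbk2, which are older symbols of the listed Grk2 and Grk3. The other 129 symbols had a row, and 108 of them had enough counts to test. In Alox5ko_TAC against Alox5ko_NS 2 rose (Gnao1 and Pde8a) and 0 fell (1.85% of the 108), beside 1.34% of all tested genes. In WT_TAC against WT_NS 1 rose (Adcy8) and 1 fell (Adcy1), again 1.85%, beside 0.766% of all tested genes. Averaged over the genotypes 6 rose and 2 fell under TAC (7.41%), beside 5.10% of all tested genes. The median log2 fold change of the 108 in the averaged fit was -0.04, beside 0.0007 over all tested genes.

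Among the other adrenergic receptors, Adra1d, an alpha-1 receptor, was tested at 13 to 37 counts a library and was not called under TAC. Of the other 6 cyclases tested, Adcy7 rose and Adcy1 fell in the averaged fit. Adcy7, a cyclase abundant in blood and immune cells, was at 9.93, 7.82 and 9.23 CPM in Alox5ko_TAC and 5.68, 4.51 and 4.85 CPM in Alox5ko_NS. In wild type it was at 14.6, 7.42 and 9.26 CPM with TAC and 7.41, 7.52 and 5.61 CPM with NS. The groups did not overlap in the knockout and did in wild type. The averaged log2 fold change was 0.72 (SE 0.146, adjusted p = 0.0100). Macrophage markers summed to 47.6 to 60.3 CPM in Alox5ko_TAC, 44.7 to 47.0 CPM in Alox5ko_NS, 41.2 to 60.9 CPM in WT_TAC and 52.4 to 57.5 CPM in WT_NS, with none of the 5 at 0, and their part in Adcy7 was not tested.

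Adcy1 and Adcy8, both calcium-stimulated cyclases best known from the brain, changed in opposite directions in wild type at low counts (11 to 53 and 10 to 58). Adcy8 was at 2.72, 1.50 and 2.26 CPM in WT_TAC, against 0.50, 0.432 and 1.17 CPM in WT_NS, a log2 fold change of 1.62 (SE 0.353, adjusted p = 0.0390). Adcy1 was at 0.517, 0.686 and 0.564 CPM in WT_TAC, against 2.32, 1.56 and 1.93 CPM in WT_NS, a log2 fold change of -1.70 (SE 0.328, adjusted p = 0.0231). In the knockout the values were -0.10 for Adcy8 and -0.46 for Adcy1, and the differences between the genotypes did not pass adjustment (adjusted p = 0.629 and 0.813). Leaving out 1 of the 6 wild type libraries ended each of these calls in 4 of 6 fits, at adjusted p up to 0.168 for Adcy8 and 0.114 for Adcy1.

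Of 16 G protein subunits, Gnao1 alone was called. It encodes the alpha subunit of Go, an inhibitory G protein. Its level was 29.2, 19.9 and 31.3 CPM in Alox5ko_TAC and 16.1, 14.5 and 13.2 CPM in Alox5ko_NS. Wild type was at 24.9, 24.6 and 22.7 CPM with TAC and 17.1, 15.9 and 17.5 CPM with NS. TAC libraries were above NS libraries in both genotypes without overlap. The log2 fold change was 0.88 in the knockout (SE 0.131, adjusted p = 0.00382), 0.51 in wild type (adjusted p = 0.0787) and 0.70 averaged (adjusted p = 0.000611). Gnao1 shares 284 exon bases with the antisense model Gm26843, at 84 to 208 counts against 297 to 689 for Gnao1. Any part of that model in the Gnao1 values was not tested.

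Of 12 receptor kinases, arrestins and RGS proteins, Rgs2 was called. Rgs2 shortens Gq signalling, and it fell by 0.87 on the log2 scale in the averaged fit (SE 0.187, adjusted p = 0.0295). Its level was 25.3, 19.4 and 21.1 CPM in Alox5ko_TAC and 29.2, 42.8 and 23.5 CPM in Alox5ko_NS. Wild type was at 24.9, 14 and 13.9 CPM with TAC and 42.2, 41.7 and 37.8 CPM with NS. The knockout groups overlapped and the wild type groups did not. This call was lost in 8 of the 12 fits that left out 1 library, at adjusted p up to 0.0763.

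Downstream of cyclic AMP, none of 16 genes of protein kinase A, Epac and their anchors was called in the averaged fit, and the smallest p was that of Pkia, an inhibitor of protein kinase A (-0.21, adjusted p = 0.115). The list of phosphodiesterases, which break down cyclic nucleotides, had 14 tested genes, with 1 of them (Pde4dip) for a phosphodiesterase-interacting protein. Of these 14, Pde8a rose by 0.44 (SE 0.0804, adjusted p = 0.00327) in the averaged fit. It was at 16.6, 15.9 and 20.2 CPM in Alox5ko_TAC, against 11.2, 12.5 and 13.8 CPM in Alox5ko_NS, without overlap, and the knockout value was 0.49 (adjusted p = 0.0341), a call lost in 4 of 6 fits without 1 library, at adjusted p up to 0.177, and in the fit on these groups alone (0.0775). Of 11 targets of protein kinase A in the myocyte, Mybpc3 (cardiac myosin-binding protein C) rose by 0.32 (adjusted p = 0.0159) and Hspb6 (the small heat shock protein Hsp20) by 0.64 (adjusted p = 0.0227). The Hspb6 call was lost in 7 of 12 fits without 1 library, at adjusted p up to 0.0767, and its exons share bases with Proser3, Gm38670 and Lin37. None of 13 Gq effectors was called under TAC, and Rcan1, a calcineurin regulator, had the smallest p (0.70, adjusted p = 0.110). Of 7 genes of catecholamine synthesis and removal none was called, and Maob, a monoamine oxidase, had the smallest p (-0.29, adjusted p = 0.0518). In the lists without a call, the lowest adjusted p within a genotype was 0.0646 for TAC in the knockout (Adcy7) and 0.0787 for TAC in wild type (Gnao1).

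Itpr1, the type 1 inositol trisphosphate receptor, which releases calcium downstream of Gq, was the only one of the 108 genes called between genotypes. It was at 32.2, 34 and 31.5 CPM in Alox5ko_TAC, against 45.9, 45.7 and 47.9 CPM in WT_TAC, and at 32.6, 37.4 and 26.5 CPM in Alox5ko_NS, against 47.9, 47.8 and 50.2 CPM in WT_NS. A call of 1 gene is 0.926% of the 108, beside 0.109% of all tested genes called with TAC, 0.0386% with NS and 0.154% averaged. Every knockout library was below every wild type library in Itpr1. The log2 fold change was -0.51 with TAC (SE 0.0989, adjusted p = 0.0475), -0.59 with NS (SE 0.0984, adjusted p = 0.0303) and -0.55 averaged (SE 0.0698, adjusted p = 0.000437). The averaged call was kept without any 1 of the 12 libraries, and the call with TAC was lost in all 6 fits without 1 library (adjusted p 0.0607 to 0.219) and that with NS in 5 of 6 (up to 0.193) and in the fit on these groups alone (0.0705). Itpr1 lies on chromosome 6 (108213096 to 108551109), the chromosome of Alox5 (116410077 to 116461178), and any part of the position of the gene in this difference was not tested. It shares 181 exon bases with the antisense model Gm44101 and 108 with the antisense model Gm44040, and their part in the Itpr1 values was not tested.

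Of the angiotensin and aldosterone genes, 11 of 22 had enough counts. Kng1, the precursor of bradykinin, was called in the averaged fit (1.10, SE 0.311, adjusted p = 0.0462) at 5 to 53 counts a library, and the call was lost in 9 of 12 fits without 1 library, at adjusted p up to 0.129. Its level was 0.849, 1.51 and 2.54 CPM in Alox5ko_TAC and 0.860, 0.560 and 0.400 CPM in Alox5ko_NS. Wild type was at 0.611, 0.472 and 0.564 CPM with TAC and 0.227, 0.389 and 0.314 CPM with NS. The knockout groups overlapped. Ren1, which encodes renin, had 1 count in WT_TAC 1 and 0 in the other 11 libraries. Agtr1b, Agtr2 and Cyp11b2 (aldosterone synthase), and Th (tyrosine hydroxylase, the first enzyme of noradrenaline synthesis), had 0 counts in all 12, which allows up to 0.110 to 0.144 CPM (3 counts a library, counting error only).

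**Figure D4:**
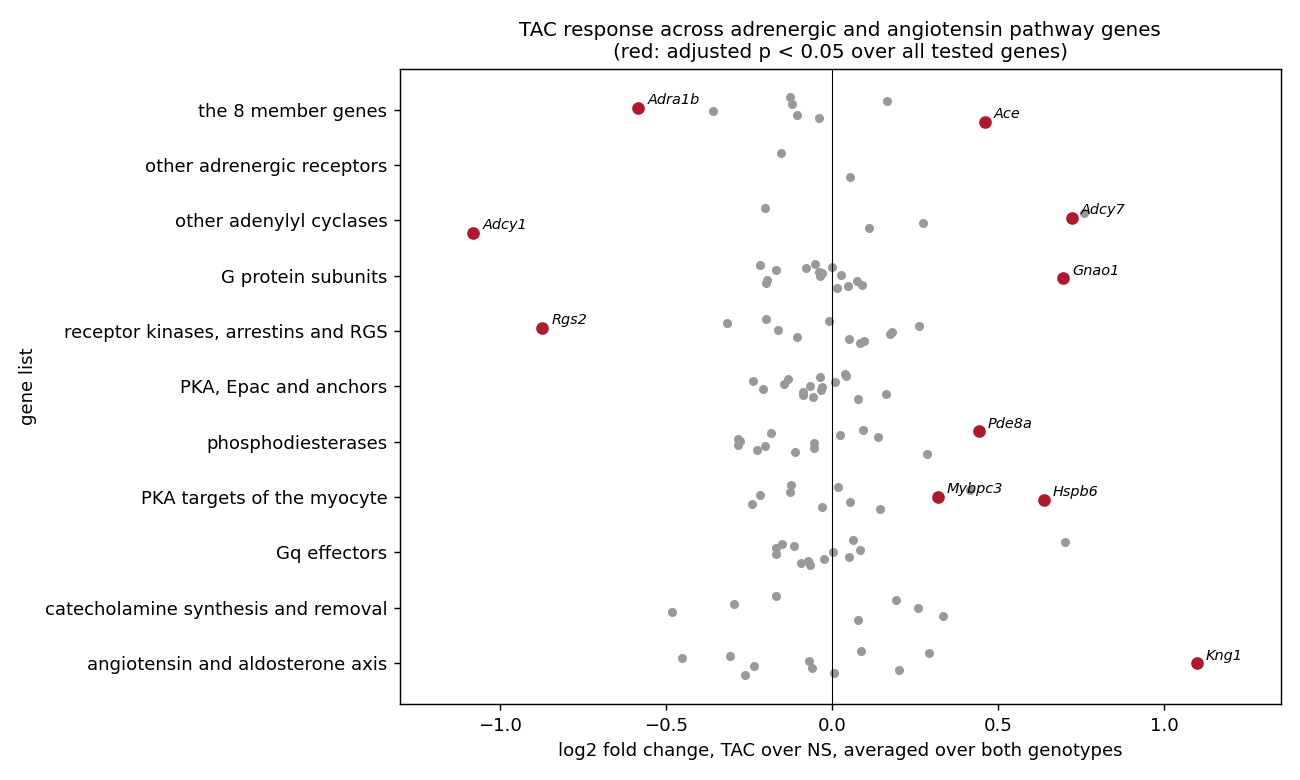
Log2 fold change of TAC over NS, averaged over both genotypes, for the 8 genes and 10 lists of pathway genes (1 point a gene, spread vertically for visibility). Red points passed an adjusted p of 0.05, and 6 pathway genes lie to the right of 0 and 2 to the left.

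Genes whose log2 CPM followed each of the 8 genes most closely over the 12 libraries were ranked by Pearson's r among 10444 tested genes, as a description that holds differences between groups and libraries. Ace was followed by Adcy7 (r = 0.93), Dapk2 (0.92) and Adamtsl5 (0.92). Adra1b was followed by Plekha5 (r = 0.95) and Lysmd4 (0.92), and Adra1a by RP23-114B10.6 (0.92), Rbbp5 (0.91) and Cdnf (0.89). For Adrb1 they were Camk2g (0.87), Ptprs (0.86) and Per3 (0.85). For the cyclases they were Fbxo38 (0.85), Haus5 (0.84) and Mepce (0.81) with Adcy5, and Tmem50b (0.86), Hnrnpm (0.86) and Ralgapa1 (0.84) with Adcy6. For Agt they were Nfkb2 (0.85), Vps18 (0.81) and Fgfr3 (0.80), and for Agtr1a Rnf150 (0.91), Dsg2 (0.88) and Cds2 (0.87). Among all pairs of the 8 genes themselves, the most negative values were those of Ace with Adra1a (r = -0.83) and Adra1b (r = -0.82). The most positive was that of Adcy5 with Adcy6 (r = 0.68), all over the same 12 libraries. These are the extremes of the pairs, and they too hold differences between groups.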

How the data were processed

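The authors deposited raw counts per gene symbol and, in a second table, RPKM, which matched values computed here from counts and gene length within 0.1%. Per the submitters' processing notes, HISAT2 and DESeq2 were used, with the builds mm10 and GRCh38 named and no versions. The counting program and its strand setting are not given in the sources used here, though the libraries are directional per the labels' protocols. In the GRCm38 annotation 47172 symbols were found on the chromosome the files give, 42887 (90.92%) with an identical span, so positions are those of mm10.

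Counts were tested with edgeR 4.0.16 in R 4.3.3: filterByExpr (minimum count 10, minimum total 15), TMM scaling, and a robust quasi-likelihood model with 1 coefficient per group over all 12 libraries. P-values were adjusted over the 15542 genes tested, with calls made under 0.05. The TAC effect and the genotype effect were also averaged, and the interaction is the log2 response to TAC in the knockout less the response in wild type. TMM factors were 0.945 to 1.035. Within each group no library was a copy of another, with a chi-square per gene of 5.39 to 31.8 between replicates. Libraries of different groups were not compared in this way. Alternatives were DESeq2 1.42.0, RLE scaling, no filter, a fit on the groups compared, a replicate block and leaving out each library.

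The members, the pathway lists and the marker lists were chosen with earlier results of these data known. Genes named are the 8, Alox5, the called genes of each list (the gene with the smallest p where none was called, given here for the averaged TAC fit), and the 3 genes most correlated with each of the 8 at a mean log2 CPM of at least 1. Overlapping gene models are named outside this rule. Some genes that the rule names are not reported here. The fit was tested on simulated data.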

Additional observations from a re-analysis of the deposited data

How the results depend on the processing

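The number of the 8 genes called stayed at 0 or 2 under DESeq2, RLE scaling, no filter on low counts, a fit on the groups compared alone and the replicate block, with 1 exception: without the filter 3 were called in the averaged TAC fit, where Adra1a joined (-0.36, adjusted p = 0.0400). Leaving out 1 library gave 0 to 2 calls in Alox5ko_TAC against Alox5ko_NS, and 2 throughout in the averaged TAC fit. Counts over all genes moved more. In Alox5ko_TAC against WT_TAC 17 genes were called, against 55 with DESeq2, 252 without the filter, 39 in the fit on the groups compared, and 10 to 27 without 1 library. In Alox5ko_NS against WT_NS the 6 became 23 with DESeq2, 116 without the filter, 18 in the fit on the groups compared and 2 to 7 without 1 library. In Alox5ko_TAC against Alox5ko_NS the 209 became 401 with DESeq2, 756 without the filter and 60 to 379 without 1 library. In WT_TAC against WT_NS the 119 became 288 with DESeq2, 538 without the filter, 215 in the fit on the groups compared and 17 to 95 without 1 library. Averaged TAC gave 792, 1331 without the filter and 407 to 990 without 1 library. Averaged genotype gave 24, 88 with DESeq2, 348 without the filter and 15 to 44 without 1 library. The interaction gave 0 with 836 genes at an unadjusted p under 0.05, 1 with DESeq2, 83 without the filter and 0 to 1 without 1 library. The causes were not tested.

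Log2 fold changes that changed sign when 1 library was left out belonged to results that were not called. In Alox5ko_TAC against Alox5ko_NS they ranged from -0.053 to 0.026 for Adcy5 and from -0.13 to 0.013 for Adcy6. Between Alox5ko_TAC and WT_TAC the ranges were -0.079 to 0.013 for Adcy5, -0.051 to 0.043 for Adcy6 and -0.42 to 0.074 for Adra1a. Between Alox5ko_NS and WT_NS they were -0.11 to 0.17 for Adra1b and -0.29 to 0.22 for Agt. In WT_TAC against WT_NS they were -0.42 to 0.072 for Adra1a and -0.75 to 0.15 for Agt. Averaged TAC gave -0.12 to 0.32 for Agt, averaged genotype gave -0.073 to 0 for Adcy6, -0.13 to 0.12 for Adra1a and -0.14 to 0.027 for Agtr1a, and the interaction gave -0.18 to 0.025 for Adrb1.

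Libraries with the same replicate number in the labels did not vary together. Over 18 pairs of same-numbered libraries the correlation of deviations from the group means was -0.121 to 0.092, with 0 above 0.1. Whether same-numbered libraries share a litter, day or batch cannot be read from these correlations. With the number as a replicate block, 170 genes were called in Alox5ko_TAC against Alox5ko_NS, 110 in WT_TAC against WT_NS, 21 between Alox5ko_TAC and WT_TAC, 6 between Alox5ko_NS and WT_NS, 773 for averaged TAC, 29 for averaged genotype and 0 for the interaction. The block changed no call among the 8 genes. Among the pathway genes it ended the calls of Itpr1 between Alox5ko_TAC and WT_TAC (adjusted p = 0.0524), Pde8a in Alox5ko_TAC against Alox5ko_NS (0.0557) and Kng1 in averaged TAC (0.0663). With 3 libraries a group, an exact permutation test cannot go below 0.1.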
